A study of Homo sapiens with 12 samples.

Results

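The genes described here are 10 amino acid transporter genes, SLC7A5, SLC7A6, SLC7A11, SLC3A2, SLC1A5, SLC1A4, SLC38A1, SLC38A2, SLC7A1 and SLC38A9, taken by name from the 25733 genes of the deposited expression table. RNA of HCT116 cells, a human colorectal carcinoma line, was sequenced in bulk in 12 libraries, 3 in each of 4 groups: untreated control cells, cells given TGF-β (200 pM for 1 h), cells given NH4Cl, a source of ammonia (10 mM for 24 h), and cells given NH4Cl for 23 h before TGF-β was added for 1 h. Doses and times come from the study's methods. The labels number the libraries of each group 1 to 3 without stating that they come from separate cultures. The p-values below therefore measure the spread between these libraries, which may be technical. Where the replicate number was put in the model, they measure only the spread left after differences between the numbers are removed.

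Amino acids cross cell membranes through carrier proteins of the SLC families. SLC7A5, SLC7A6 and SLC7A11 are light chains that reach the cell surface bound to the heavy chain SLC3A2, whereas SLC1A5, SLC38A1 and SLC38A2 carry glutamine and other neutral amino acids with sodium, SLC1A4 exchanges small neutral amino acids, and SLC7A1 takes up arginine and lysine. SLC38A9 sits in the lysosome membrane, where it senses arginine for the growth kinase complex mTORC1. Proliferating colon tumor cells are known to draw glutamine, leucine and cystine from the medium through such carriers.

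Between 14807630 and 18191998 reads fell on genes in a library, with a median of 15484798. The libraries numbered 3 stood apart in every group. Mitochondrial genes held 4.50% to 5.12% of their reads, compared with 2.46% to 3.18% in the libraries numbered 1 and 2. The chi-square per gene of the reads was 25.4 to 36.3 between a library numbered 3 and another of its group, compared with 1.76 to 5.02 between the libraries numbered 1 and 2, and the value of 5.02 belonged to NH4Cl plus TGF-β. Each comparison is therefore given without and with the replicate number as a block in the model. Counts of called genes and results of the called transporters are also given without the libraries numbered 3, but those of genes in the other lists are not. A block that only sets the libraries numbered 3 apart called the same transporters in every comparison.

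All 10 genes were expressed at a mean of at least 1 FPKM, the minimum for testing, which 12341 genes reached. FPKM are reads scaled by exon length and by a total for the library, a level per length. SLC1A5 had the highest level, 965 FPKM on average, which placed it at rank 23 of all genes and made up 66.7% of the summed FPKM of the 10 transporters. SLC7A5 followed with 229 FPKM and SLC3A2 with 100 FPKM. The next levels were 52.5 FPKM for SLC38A2, 42.8 FPKM for SLC38A1 and 38.9 FPKM for SLC7A1, then 6.61 FPKM for SLC1A4, 5.88 FPKM for SLC7A6, 4.38 FPKM for SLC7A11 and 1.27 FPKM for SLC38A9. Down to SLC3A2 the ranges over the 12 libraries did not touch, nor did those of SLC7A1 and SLC1A4 or of SLC7A11 and SLC38A9. The ranges of SLC38A2, SLC38A1 and SLC7A1 overlapped, although SLC38A2 exceeded SLC38A1 in 10 of 12 libraries and SLC38A1 exceeded SLC7A1 in 12 of 12. SLC1A4 exceeded SLC7A6 in 10 of 12 libraries, and SLC7A6 exceeded SLC7A11 in 11 of 12.

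**Figure D1:**
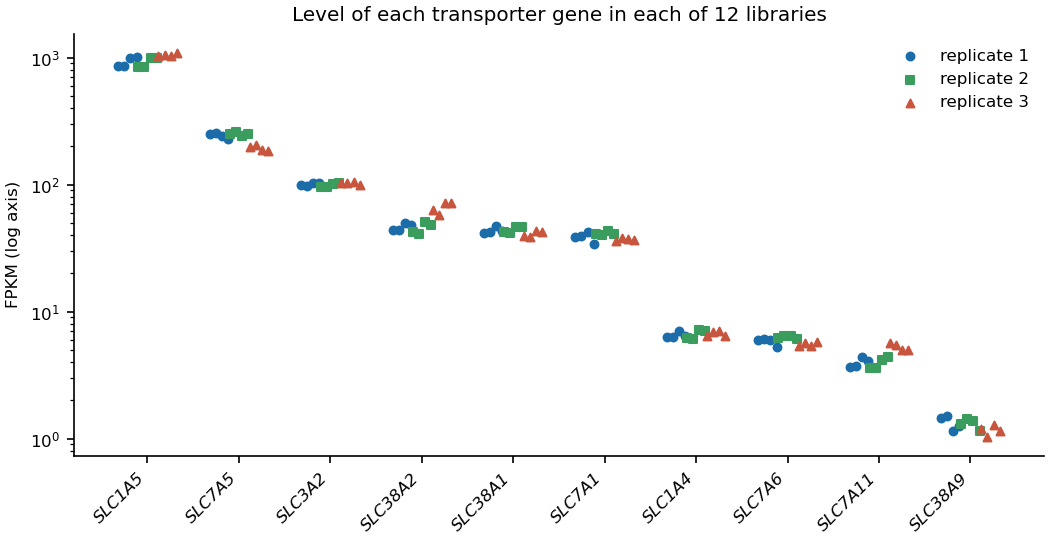
FPKM of the 10 transporter genes on a log axis, 1 point per library, with marker shape and color giving the replicate number and the points of a number in the order control, TGF-β, NH4Cl, NH4Cl plus TGF-β. Levels run from 1087 FPKM for the highest SLC1A5 library to 1.04 FPKM for the lowest SLC38A9 library, and the libraries numbered 3 are high for SLC38A2 and SLC7A11 and low for SLC7A5.

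Several levels differed between replicate numbers. The mean of the libraries numbered 3 over that of the other libraries was 1.44 for SLC38A2, 1.34 for SLC7A11, 1.13 for SLC1A5 and 0.784 for SLC7A5. The FPKM of all genes summed to 301728 to 305984 in the libraries numbered 3 and to 262958 to 278920 in the others. The library total that the FPKM imply was 0.964 to 0.969 times the reads on genes in the libraries numbered 3. In the others it was 1.02 to 1.03 times those reads. The part of these offsets in the ratios was not tested.

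Of the 10 transporters, only SLC38A2 was called in both NH4Cl comparisons when the replicate block was in the model, and the differences were small. With the replicate block, limma called 2 of 10 transporters in NH4Cl against control, SLC38A2 and SLC38A1, both higher, where 13.6% of all genes were called, 7.42% higher and 6.14% lower. In NH4Cl plus TGF-β against TGF-β it called 3 of 10, SLC38A2 and SLC1A5 higher and SLC7A5 lower, where 18.8% of all genes were called, 10.3% higher and 8.48% lower. With so few genes, these counts do not set the transporters apart from the other genes tested. Without the block, 0 of 10 passed in either comparison, beside 0.381% and 1.03% of all genes. In that fit 2 and 0 transporters had an unadjusted p under 0.05, beside 1333 and 1642 of all 12341 genes. In the libraries numbered 1 and 2 alone, without the block, 2 of 10 passed in each comparison, SLC38A2 and SLC1A5, beside 10.5% and 14.1% of all genes. In bulk RNA, fewer cells and less RNA per cell cannot be told apart.

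The median difference of the 10 genes on the log2(FPKM + 1) scale, on which every difference below is given and which understates changes of genes near 1 FPKM, was 0.08 in NH4Cl against control and 0.05 in NH4Cl plus TGF-β against TGF-β. Over all 12341 genes the medians were 8.4e-05 and -5.7e-05. In the former comparison 5 transporters were higher in 3 of 3 replicate numbers (SLC38A2, SLC38A1, SLC1A4, SLC7A1 and SLC3A2) and 1 was lower (SLC7A5), whereas 26.4% of all genes were higher and 25.3% lower in that way. In the latter, 3 were higher (SLC38A2, SLC38A1 and SLC1A5) and 1 was lower (SLC7A5), compared with 25.2% in each direction over all genes. The libraries of the groups did not overlap for 2 of 10 transporters in NH4Cl against control, SLC1A4 and SLC38A1, compared with 17.5% of all genes, and for 0 of 10 in NH4Cl plus TGF-β against TGF-β, compared with 16.3%.

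**Figure D2:**
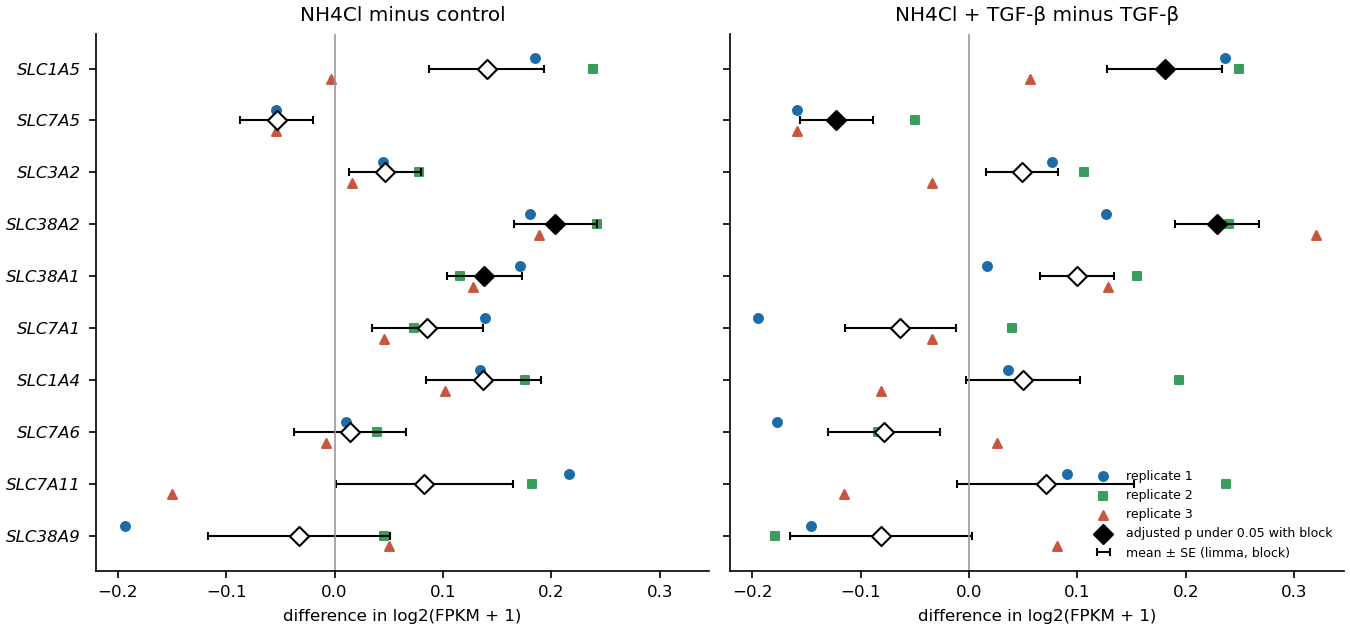
Differences in log2(FPKM + 1) of the 10 transporter genes for NH4Cl minus control and for NH4Cl plus TGF-β minus TGF-β. Colored points are the differences within a replicate number, diamonds and bars the mean and the SE from limma with the replicate block, and filled diamonds mark an adjusted p under 0.05, reached by SLC38A2 and SLC38A1 on the left and by SLC38A2, SLC1A5 and SLC7A5 on the right.

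Promoter sequences are shown for the called transporters and for the heavy chain where a short motif lay in them. RefSeq promoter windows on GRCh38.p14, from 250 bases before to 50 after a start site, were found for 9 of 10 genes, 17 windows in all, and not for SLC7A11. On both strands, TGATGNAAN, the letters of the C/EBP-ATF response element, occurred in 5 of 17 windows and in 3.61% of all 35116 windows, and TGACNNNGC, the core of the antioxidant response element, in 5 of 17 and in 13.3%. Matches of the motifs did not overlap each other in these windows. TGATGNAAN occurred in windows of SLC1A4, SLC3A2, SLC38A1, SLC7A1 and SLC1A5, and TGACNNNGC in windows of SLC3A2, SLC7A1, SLC7A6, SLC7A5 and SLC1A5. Capitals mark the matches in 1 window each of SLC38A1 (chr12:46266467-46266766, minus strand), SLC1A5 (chr19:46784765-46785064, minus strand), SLC7A5 (chr16:87869458-87869757, minus strand) and SLC3A2 (chr11:62881449-62881748, plus strand). The windows of SLC38A1, SLC1A5 and SLC3A2 belong to start sites inside the annotated gene, and the windows at the outer ends of SLC1A5 (chr19:46788545-46788844) and SLC3A2 (chr11:62855859-62856158) hold 0 matches. The other window of SLC38A1 (chr12:46267938-46268237) also holds 0 matches.
SLC38A1: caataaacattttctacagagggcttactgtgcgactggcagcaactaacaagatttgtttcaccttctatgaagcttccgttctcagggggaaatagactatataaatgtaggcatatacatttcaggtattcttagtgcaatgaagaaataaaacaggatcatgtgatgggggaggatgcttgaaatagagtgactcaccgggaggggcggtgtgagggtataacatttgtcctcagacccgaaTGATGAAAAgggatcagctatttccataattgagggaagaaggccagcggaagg
SLC1A5: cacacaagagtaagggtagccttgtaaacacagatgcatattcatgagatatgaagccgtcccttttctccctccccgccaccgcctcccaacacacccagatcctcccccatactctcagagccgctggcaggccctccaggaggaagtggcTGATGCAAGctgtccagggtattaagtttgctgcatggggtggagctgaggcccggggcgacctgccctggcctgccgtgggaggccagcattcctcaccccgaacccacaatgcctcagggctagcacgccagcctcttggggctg
SLC7A5: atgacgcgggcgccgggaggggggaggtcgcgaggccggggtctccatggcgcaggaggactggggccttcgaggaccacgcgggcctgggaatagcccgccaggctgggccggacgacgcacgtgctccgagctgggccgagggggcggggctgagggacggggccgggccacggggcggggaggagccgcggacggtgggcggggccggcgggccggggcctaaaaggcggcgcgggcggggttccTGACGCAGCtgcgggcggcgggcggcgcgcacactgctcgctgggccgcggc
SLC3A2: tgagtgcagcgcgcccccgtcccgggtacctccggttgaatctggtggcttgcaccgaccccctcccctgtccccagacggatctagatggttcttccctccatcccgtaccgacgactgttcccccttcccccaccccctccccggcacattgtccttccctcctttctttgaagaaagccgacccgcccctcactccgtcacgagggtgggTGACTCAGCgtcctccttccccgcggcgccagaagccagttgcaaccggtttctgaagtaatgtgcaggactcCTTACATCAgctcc
The match begins 4 bases before the start site in SLC38A1, 97 before it in SLC1A5 and 2 before it in SLC7A5. In SLC3A2 the antioxidant core begins 37 bases before the start and the C/EBP-ATF letters 36 bases after it. The window of SLC38A2 (chr12:46372724-46373023, minus strand) holds neither motif, which says only that these letters are not in this window. The matches are a description of the sequence, and binding was not tested.

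SLC38A2, the sodium-coupled neutral amino acid carrier known to be raised when amino acids run short (chr12:46358189-46372867, minus strand, GRCh38), had the largest mean difference of the 10 genes in both NH4Cl comparisons. In control libraries 1, 2 and 3 its level was 43.5, 42.5 and 62.7 FPKM, and in NH4Cl libraries 49.4, 50.4 and 71.7 FPKM. With TGF-β alone it was 43.8, 40.6 and 57.2 FPKM, and with NH4Cl plus TGF-β 47.9, 48.2 and 71.6 FPKM. Within each replicate number both libraries with NH4Cl lay above both without it, while the groups overlapped because the libraries numbered 3 were high in all 4 groups. The log2 difference was 0.20 ± 0.04 (SE) for NH4Cl against control (limma with the block, adjusted p = 0.00868; without it 0.842), a rise of 15.2% in FPKM + 1, higher in 3 of 3 replicate numbers. It was 0.23 ± 0.04 for NH4Cl plus TGF-β against TGF-β (limma with the block, adjusted p = 0.00375; without it 0.740), a rise of 17.2% in FPKM + 1, again in 3 of 3. In the libraries numbered 1 and 2 alone the differences were 0.21 and 0.18 (limma without the block, adjusted p = 0.0246 and 0.0302). Leaving out NH4Cl library 2 took the former difference to an adjusted p of 0.0505 with the block, and the range over its alternatives was 0.00458 to 0.0505. The latter passed under each of 13 alternatives, with adjusted p between 0.00179 and 0.0386.

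SLC38A1, a carrier of the same family for glutamine and alanine (chr12:46183063-46270017, minus strand), measured 41.6, 42.6 and 39.2 FPKM in control and 47.0, 46.2 and 43.0 FPKM in NH4Cl libraries, which did not overlap. With TGF-β it measured 42.3, 41.6 and 38.6 FPKM, and with NH4Cl plus TGF-β 42.8, 46.5 and 42.2 FPKM, and there the groups overlapped. It rose by 0.14 ± 0.03 on the log2 scale in NH4Cl against control (limma with the block, adjusted p = 0.0264; without it 0.455) in 3 of 3 replicate numbers. The call was lost when any of the 6 libraries was left out (adjusted p 0.0545 to 0.107), in replicates 1 and 2 alone, and when libraries were brought to equal sums. In NH4Cl plus TGF-β against TGF-β the difference of 0.10 ± 0.03 had an adjusted p of 0.0702 with the block (limma). The difference between these effects of NH4Cl was -0.04 ± 0.05 (limma with the block, adjusted p = 0.992). In libraries 1 and 2 the level of SLC38A2 was 0.976 to 1.12 times that of SLC38A1 per length, and in the libraries numbered 3 it was 1.48 to 1.70 times as high.

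SLC1A5, the sodium-dependent exchanger that brings glutamine into many tumor cells (chr19:46774883-46788594, minus strand), measured 865, 847 and 1028 FPKM in control and 984, 1000 and 1026 FPKM in NH4Cl libraries. With TGF-β it measured 856, 839 and 1046 FPKM, and with NH4Cl plus TGF-β 1008, 998 and 1087 FPKM. In the libraries numbered 1 and 2 the 4 with NH4Cl (984 to 1008 FPKM) lay above the 4 without it (839 to 865 FPKM), whereas the control library 3 was already above every library numbered 1 or 2. The log2 differences within replicate numbers were 0.18, 0.24 and -0.0030 for NH4Cl against control, and the mean of 0.14 ± 0.05 missed the threshold (limma with the block, adjusted p = 0.1096; without it 0.716). For NH4Cl plus TGF-β against TGF-β they were 0.24, 0.25 and 0.06, higher in 3 of 3, and SLC1A5 rose by 0.18 ± 0.05 (limma with the block, adjusted p = 0.0401; without it 0.497). The call was lost in 5 of 6 fits that left out 1 library (adjusted p 0.0213 to 0.154 over the 6), and was lost without the level filter and when libraries were centered on their medians. The interaction of the treatments was 0.04 ± 0.07 (limma with the block, adjusted p = 0.992). In the libraries numbered 1 and 2 alone SLC1A5 passed in both comparisons, by 0.21 and 0.24 (limma without the block, adjusted p = 0.0216 and 0.0107).

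SLC1A4, its relative that exchanges alanine, serine and cysteine, was lower per length than SLC1A5 by a factor of 136 to 169 in every library. It measured 6.34, 6.21 and 6.44 FPKM in control and 7.06, 7.15 and 6.98 FPKM in NH4Cl libraries, which did not overlap. The mean difference was 0.14 ± 0.05 (limma with the block, adjusted p = 0.116; without it 0.422), higher in 3 of 3 replicate numbers but not past the threshold. With TGF-β it measured 6.28, 6.05 and 6.88 FPKM and with NH4Cl plus TGF-β 6.46, 7.06 and 6.45 FPKM, and the difference was higher in 2 of 3.

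**Figure D3:**
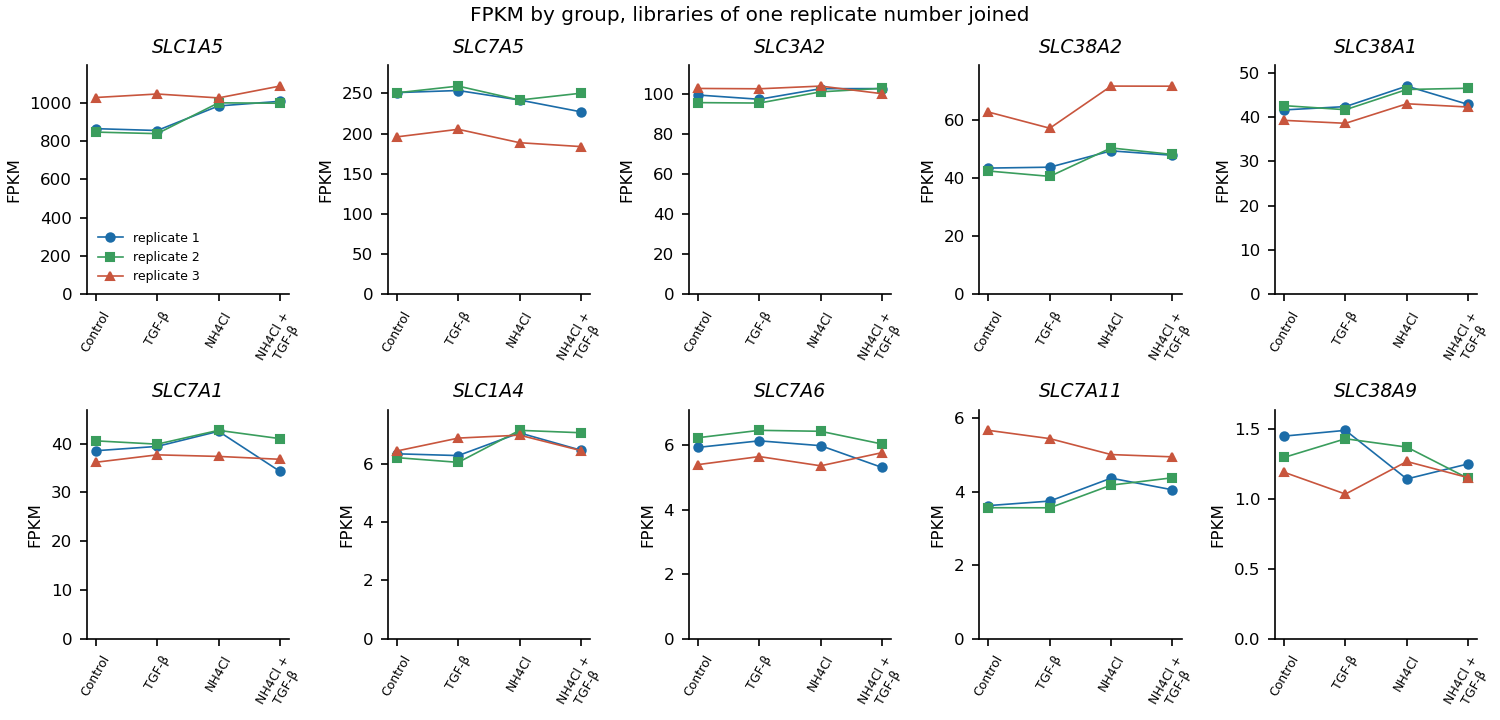
FPKM of each transporter gene in the 4 groups, with the libraries of a replicate number joined by a line and every axis starting at 0. SLC38A2 is higher with NH4Cl along all 3 lines, SLC1A5 along the lines of replicates 1 and 2, and SLC7A11 is higher with NH4Cl along those lines and lower along that of replicate 3.

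SLC3A2, the heavy chain, varied little, from 95.4 to 103.8 FPKM over the 12 libraries. Its difference was 0.05 ± 0.03 in each NH4Cl comparison, with adjusted p of 0.400 and 0.341 (limma with the block). SLC7A5, the light chain that exchanges leucine and other large neutral amino acids for glutamine (chr16:87830023-87869488, minus strand), measured 251, 251 and 196 FPKM in control and 242, 242 and 189 FPKM in NH4Cl libraries. With TGF-β it measured 254, 259 and 205 FPKM, and with NH4Cl plus TGF-β 227, 250.2 and 184 FPKM. The libraries numbered 3 were the lowest of every group, so the groups overlapped, while within each number NH4Cl lay below its partner. SLC7A5 fell by 0.12 ± 0.03 on the log2 scale in NH4Cl plus TGF-β against TGF-β (limma with the block, adjusted p = 0.0327; without it 0.816), lower in 3 of 3 replicate numbers. The call was lost in 5 of 6 fits that left out 1 library (adjusted p 0.0162 to 0.105 over the 6), and was lost in the libraries numbered 1 and 2 alone (0.180 with the block), without the level filter and when libraries were brought to equal sums. In NH4Cl against control the difference was -0.05 within each number, and the mean did not pass (limma with the block, adjusted p = 0.336). The interaction was -0.07 ± 0.05 (limma with the block, adjusted p = 0.992), so the effect of NH4Cl was not shown to differ with TGF-β.

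The level of SLC7A5 per length was 1.82 to 2.72 times that of SLC3A2. This ratio, which the scaling of a library does not enter, was 2.53, 2.62 and 1.91 in control and 2.36, 2.39 and 1.82 in NH4Cl libraries 1, 2 and 3. With TGF-β it was 2.61, 2.72 and 2.00, and with NH4Cl plus TGF-β 2.21, 2.44 and 1.84. It was lower with NH4Cl within each replicate number of both comparisons, and the difference in the ratio was not tested. SLC7A5, SLC7A6 and SLC7A11 together came to 1.92 to 2.82 times the level of SLC3A2. This sum holds only the light chains described here and is not a total of all light chains. SLC7A8, at a mean of 18.9 FPKM, and SLC7A7, at 1.35 FPKM, were not in it.

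**Figure D4:**
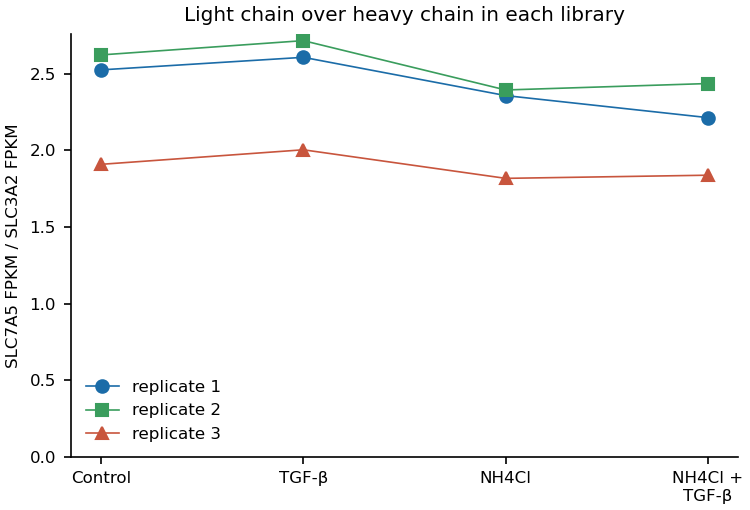
FPKM of SLC7A5, a light chain, divided by that of SLC3A2, the heavy chain, in each library, with the libraries of a replicate number joined by a line and the axis starting at 0. The ratio lies between 1.82 and 2.00 in the libraries numbered 3 and between 2.21 and 2.72 in the others, and is lower with NH4Cl along each line.

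Some reads of SLC7A5 may belong to near-identical copies. The pseudogene SLC7A5P1 on chromosome 16 was listed at 2.83 to 5.50 FPKM, or 22 to 50 reads in a library, compared with 12941 to 22369 reads for SLC7A5. Its log2 difference was -0.28 ± 0.08 in NH4Cl against control and -0.27 ± 0.08 in NH4Cl plus TGF-β against TGF-β, lower in 3 of 3 replicate numbers each time (limma with the block, adjusted p = 0.0431 and 0.0417; without it 0.551 and 0.494). How reads were divided between the copies is not stated, so both values are uncertain.

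SLC7A11, the light chain that imports cystine for glutathione synthesis in exchange for glutamate (chr4:138164097-138242349, minus strand), moved in opposite directions in different replicate numbers. It measured 3.62, 3.57 and 5.67 FPKM in control and 4.37, 4.18 and 5.01 FPKM in NH4Cl libraries. With TGF-β it measured 3.75, 3.57 and 5.45 FPKM, and with NH4Cl plus TGF-β 4.05, 4.38 and 4.95 FPKM. In the libraries numbered 1 and 2 the 4 with NH4Cl lay above the 4 without it, and in those numbered 3 both with NH4Cl lay below both without it. The log2 differences were 0.22, 0.18 and -0.15 in NH4Cl against control and 0.09, 0.24 and -0.12 in NH4Cl plus TGF-β against TGF-β. The means of 0.08 ± 0.08 and 0.07 ± 0.08 did not pass (limma with the block, adjusted p = 0.554 and 0.591), and whether the effect differs between replicate numbers was not tested. Counting error of a library was 3.91% at its median of 655 reads.

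SLC7A6, the light chain that exchanges arginine for neutral amino acids, ranged from 5.30 to 6.45 FPKM over the 12 libraries, and its differences were 0.01 ± 0.05 in NH4Cl against control and -0.08 ± 0.05 in NH4Cl plus TGF-β against TGF-β (limma with the block, adjusted p = 0.896 and 0.327). Its exons share 44.4% of their bases with SLC7A6OS on the opposite strand, and since the strand of counting is not stated, reads of this pair cannot be told apart. SLC1A5 shares 23.4% of its exon bases with the antisense gene AC008622.2, listed at a mean of 0.368 FPKM, SLC7A6 shares 11.1% with AC020978.9, SLC7A11 shares 8.97% with SLC7A11-AS1 and SLC7A5 shares 5.71% with AC126696.2.

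SLC7A1, the uptake carrier for arginine and lysine, measured 38.5, 40.6 and 36.2 FPKM in control and 42.5, 42.7 and 37.4 FPKM in NH4Cl libraries, higher in 3 of 3 replicate numbers. With TGF-β it measured 39.4, 39.9 and 37.7 FPKM, and with NH4Cl plus TGF-β 34.3, 41.0 and 36.8 FPKM, higher in 1 of 3. Library 1 of NH4Cl plus TGF-β was the lowest of all 12. The differences of 0.09 ± 0.05 and -0.06 ± 0.05 did not pass (limma with the block, adjusted p = 0.307 and 0.429), and the difference between them, -0.15 ± 0.07, had an adjusted p of 0.992. SLC38A9 ranged from 1.04 to 1.49 FPKM on a median of 175 reads, where counting error alone is 7.56% of a library's value. Its differences of -0.03 ± 0.08 and -0.08 ± 0.08 did not pass (limma with the block, adjusted p = 0.842 and 0.541).

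TGF-β for 1 h moved these transcripts little. In TGF-β against control the log2 differences ran from -0.06 for SLC38A2 to 0.05 for SLC7A6, with a median of -0.00092. With the block, limma called 0 of 10 transporters, beside 0.0081% of all genes, and without it 0 of 10, beside 0% of all genes. An unadjusted p under 0.05 was reached by 0 transporters in either fit, beside 422 of all 12341 genes with the block and 103 without it. In NH4Cl plus TGF-β against NH4Cl the differences ran from -0.13 for SLC7A1 to 0.04 for SLC1A5. There 0 of 10 passed in either fit, beside 0.0081% of all genes with the block and 0% without it. At an unadjusted p under 0.05 were 1 and 0 transporters, beside 879 and 165 of all 12341 genes. Testing whether the NH4Cl effect differs with TGF-β, their interaction, called 0 of 10 with the block and without it, beside 0% of all genes in both. For the interaction 0 transporters had an unadjusted p under 0.05, beside 537 of all 12341 genes with the block and 115 without it.

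NH4Cl plus TGF-β against control shares libraries with the comparisons above, so its values are given only beside them. With the block limma called 2 of 10, SLC38A2 and SLC1A5, beside 18.4% of all genes, and without it 0 of 10, beside 0.948%. Without the block 0 transporters had an unadjusted p under 0.05, beside 1618 of all 12341 genes. SLC38A2 rose by 0.17 ± 0.04 (limma with the block, adjusted p = 0.0159) and SLC1A5 by 0.18 ± 0.05 (adjusted p = 0.0415), each in 3 of 3 replicate numbers. With a library left out, SLC38A2 passed in 2 of 6 cases (adjusted p 0.0233 to 0.0696) and SLC1A5 in 0 of 6 (0.0522 to 0.162). In the libraries numbered 1 and 2 alone, without the block, 1 of 10 passed, SLC1A5, by 0.23 (adjusted p = 0.0144), beside 13.2% of all genes.

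Of the other transporters at the cell surface, 22 of 27 listed genes had a row and 9 passed the level filter. SLC6A6, the taurine carrier, rose from 18.5 ± 0.870 (SD, n = 3) to 21.9 ± 2.70 FPKM with NH4Cl, by 0.22 ± 0.05 on the log2 scale (limma with the block, adjusted p = 0.0229; without it 0.405), and was the only 1 of 9 called in NH4Cl against control. In NH4Cl plus TGF-β against TGF-β the only 1 of 9 called was SLC38A5, singled out after its values were seen, which fell by 0.20 (limma with the block, adjusted p = 0.00556). Among 7 tested genes of a list of lysosomal transporters, SLC15A4, which exports histidine and peptides, rose by 0.19 ± 0.05 in NH4Cl against control (limma with the block, adjusted p = 0.0322, without it 0.541). MFSD12, a cysteine importer named after its values were seen, rose by 0.20 in NH4Cl plus TGF-β against TGF-β (limma with the block, adjusted p = 0.0247). Of 9 mitochondrial amino acid carriers tested, 0 passed in either comparison. The share of all genes called was 13.6% and 18.8%. Without the block, 0 genes of these lists passed in either comparison. Medians of the log2 differences were 0.04 and 0.04 for the surface list, 0.14 and 0.0084 for the lysosomal list and 0.06 and 0.05 for the mitochondrial list.

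The genes of the amino acid response, which the factor ATF4 turns on when amino acids are scarce, included the largest rise among the lists compared. With the block, 4 of 19 tested were called in NH4Cl against control, all higher, and 9 of 19 in NH4Cl plus TGF-β against TGF-β, 8 higher and 1 lower, beside 13.6% and 18.8% of all genes, and without the block 0 in each. TRIB3, a pseudokinase that acts back on this response, was listed at 111 ± 53.0 (SD, n = 3) FPKM in control and at 161 ± 54.9 FPKM in NH4Cl libraries, and rose by 0.58 ± 0.08 on the log2 scale in 3 of 3 replicate numbers (limma with the block, adjusted p = 0.00229; without it 0.718). STC2 rose by 0.32 ± 0.04 (limma with the block, adjusted p = 0.00197; without it 0.905) and PSPH, of serine synthesis, by 0.22 ± 0.05 (0.0191; without it 0.192), each in 3 of 3. The other gene called, CEBPB, rose by 0.22 (adjusted p = 0.00558), and the gene that fell in NH4Cl plus TGF-β against TGF-β was ATF5, by 0.21 (adjusted p = 0.0114), both named after their values were seen. The median of the list was 0.10 and 0.17 in the comparisons. In NH4Cl against control 13 of 19 differences were above 0. There ATF4 itself did not pass, at 0.06 (limma with the block, adjusted p = 0.493). ASNS lay at -0.02, CHAC1 at -0.06 and PHGDH at -0.0069, and these too were named after their values were seen.

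Genes through which amino acids act on mTORC1 gave 4 of 22 called in NH4Cl against control and 5 of 22 in NH4Cl plus TGF-β against TGF-β with the block, near the 13.6% and 18.8% of all genes, and 0 and 1 without it. RRAGD, a Rag GTPase, rose by 0.30 ± 0.05 (limma with the block, adjusted p = 0.00622; without it 0.422), and FLCN, which acts on the Rag GTPases, by 0.27 ± 0.06 (0.0172; without it 0.365). ITFG2, a subunit of the KICSTOR complex, fell by 0.25 ± 0.05, from 4.71 ± 0.138 to 3.79 ± 0.165 FPKM (SD, n = 3), in 3 of 3 replicate numbers (limma with the block, adjusted p = 0.00768; without it 0.0678), and was the gene called without the block in NH4Cl plus TGF-β against TGF-β, where it fell by 0.38 (adjusted p = 0.0148). FNIP1, the partner of FLCN, rose by 0.19 (adjusted p = 0.0192), and RHEB, named after its values were seen, by 0.22 in NH4Cl plus TGF-β against TGF-β (adjusted p = 0.00448). The medians were 0.06 and -0.0064.

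Enzymes that use the imported glutamine, glutamate, cysteine and arginine gave 5 of 11 called in NH4Cl against control and 4 of 11 in NH4Cl plus TGF-β against TGF-β with the block, all higher, beside 13.6% and 18.8% of all genes, and 0 and 1 without it. ARG2, the mitochondrial arginase, rose by 0.36 ± 0.05 in NH4Cl against control (limma with the block, adjusted p = 0.00139; without it 0.701). GOT1, the cytosolic aspartate transaminase, rose by 0.31 ± 0.04, from 19.8 ± 1.75 to 24.7 ± 1.04 FPKM (SD, n = 3; limma with the block, adjusted p = 0.00153; without it 0.142), and in NH4Cl plus TGF-β against TGF-β by 0.41 (0.000310; without it 0.0457). Both rose in 3 of 3 replicate numbers of each comparison. Also called in NH4Cl against control were GLUD1, higher by 0.20 (adjusted p = 0.00471), and GOT2, higher by 0.12 (adjusted p = 0.0400), named after their values were seen. The medians were 0.12 and 0.13.

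**Figure D5:**
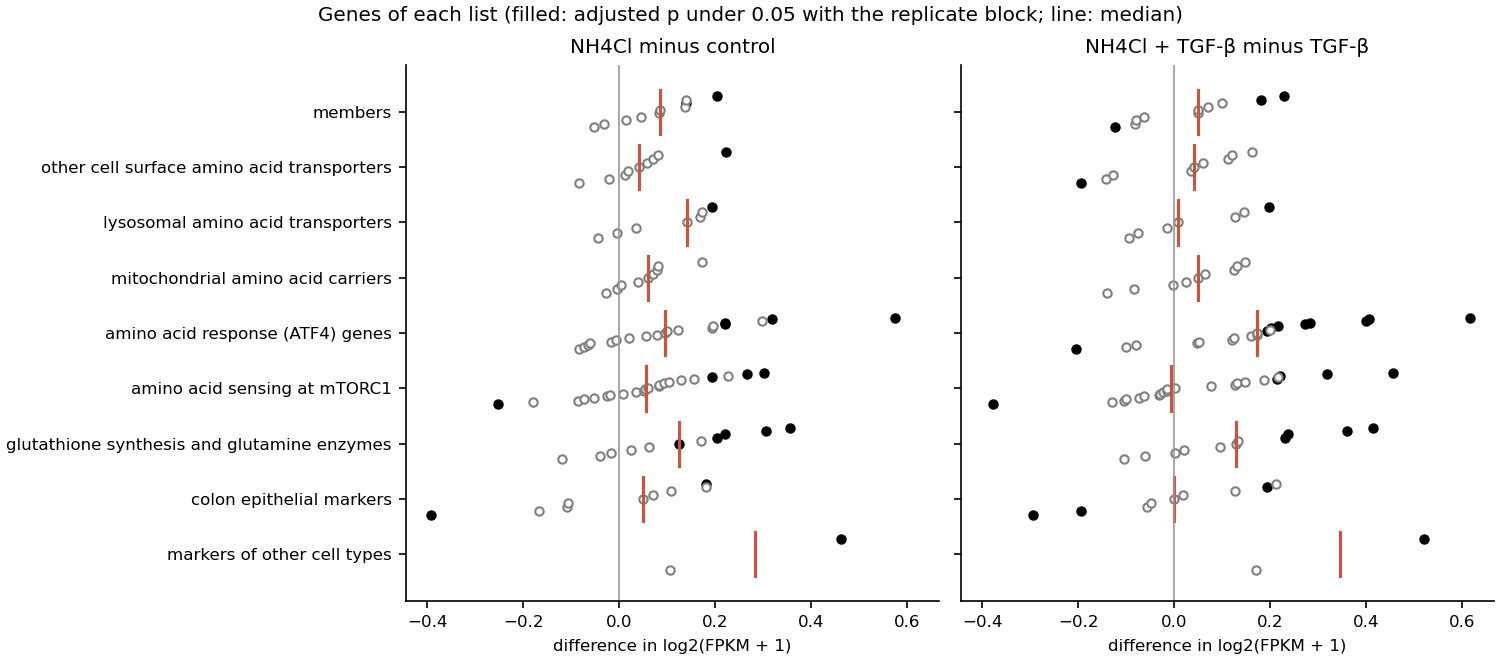
Differences in log2(FPKM + 1) of the tested genes of each list for NH4Cl minus control and for NH4Cl plus TGF-β minus TGF-β, 1 point per gene, filled where limma with the replicate block gave an adjusted p under 0.05, with a line at the median. The top row holds the 10 transporters, with medians of 0.08 and 0.05, and the farthest point to the right is TRIB3 in the amino acid response list, at 0.58 and 0.62.

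After the mean of each replicate number was subtracted, the genes outside the 10 whose log2 values followed SLC38A2 most closely over the 12 libraries were FNIP1 (Pearson r = 0.990), KIF1A (0.985), HSPA4L (0.981), ATP6V1A (0.980) and NAMPT (0.976). They were picked as the highest of all genes tested, and the libraries share treatments. On this measure the r with SLC38A2 was 0.918 for SLC38A1, 0.724 for SLC1A5, 0.616 for SLC1A4, 0.592 for SLC3A2, 0.361 for SLC7A11, 0.176 for SLC7A1, -0.178 for SLC38A9, -0.222 for SLC7A6 and -0.821 for SLC7A5.

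The libraries carried colon epithelial markers. Of 10 listed, 9 were at or above 1 FPKM in every library, with a summed level of 2290 to 3435 FPKM, and KRT20 stayed under the level filter. On average KRT18 was highest with 876 FPKM, followed by KRT8 with 860 FPKM. This order did not hold in every library, since KRT8 was at least 754 FPKM throughout and KRT18 was 727 FPKM in NH4Cl library 1. In libraries 1, 2 and 3 this sum was 2532, 2422 and 3335 FPKM in control and 2290, 2316 and 2914 FPKM with NH4Cl. With TGF-β it was 2513, 2440 and 3435 FPKM and with NH4Cl plus TGF-β 2502, 2383 and 3033 FPKM, so it was lower with NH4Cl within each number, which was not tested. With the block, 2 of 9 were called in NH4Cl against control, KRT19 lower, with a difference of -0.39 ± 0.03 (limma with the block, adjusted p = 0.000131; without it 0.522) and VIL1 higher by 0.18 ± 0.05 (0.0382; without it 0.296). In NH4Cl plus TGF-β against TGF-β 3 of 9 were called (all genes 13.6% and 18.8%), KRT19 and CDH1 lower and EPCAM higher, the latter pair named after their values were seen. Of the markers of other cell types, 9 of 10 had a row, and their summed level was 4.31 to 11.1 FPKM. Over the 12 libraries VWF averaged 3.01, COL1A1 1.68, ALB 0.757, CD14 0.608, PDGFRB 0.177, CD3E 0.158, PECAM1 0.0348 and COL3A1 0.00745 FPKM. VWF rose from 2.37 ± 1.33 to 3.63 ± 1.78 FPKM (SD, n = 3) with NH4Cl, by 0.46 ± 0.08 (limma with the block, adjusted p = 0.00423; without it 0.799). In control libraries 1, 2 and 3 the summed level of these markers was 5.13, 4.44 and 7.91 FPKM and in NH4Cl libraries 5.68, 6.45 and 9.28 FPKM. In TGF-β libraries it was 5.09, 4.31 and 7.31 FPKM and in NH4Cl plus TGF-β libraries 5.51, 5.78 and 11.1 FPKM. ALB, under the level filter and not tested, was at 0.957 ± 0.114 FPKM in control and 0.577 ± 0.0166 FPKM in NH4Cl libraries (SD, n = 3), and at 0.905 ± 0.248 FPKM with TGF-β and 0.590 ± 0.0440 FPKM with NH4Cl plus TGF-β. The part of these markers in the transporter results was not tested.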

How the data were processed

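FPKM values per gene of 12 HCT116 libraries, as deposited, were analysed; the authors made them from reads trimmed, aligned to GRCh38 and counted per gene. The submitters' processing notes name Trimmomatic 0.36, STAR 2.5.2b, featureCounts of Subread 1.5.2 and DESeq2, while the study's methods name HTSeq for the counting. FPKM times GENCODE 29 exon length, divided by a unit fitted in each library to the smallest values, gave whole reads for 100% of values above 0 (tolerance 0.01), used for depth, chi-square and counting error only (Python 3.11.15, numpy 2.4.6, pandas 2.3.3; figures in matplotlib 3.10.9).

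Genes with a mean of at least 1 FPKM were tested on log2(FPKM + 1) with limma 3.58.1 in R 4.3.3, after a check on simulated data. The fit used group means, all 12 libraries, trended empirical Bayes, two-sided tests and Benjamini-Hochberg over all 12341 genes, with a threshold of 0.05. Changes in the simulated data were larger than those called for the transporters, and all replicate numbers shifted with the same spread. The check therefore does not cover changes as small as these. The replicate number was then added as a block: deviations from group means of libraries with the same number correlated in 18 of 18 pairs (r 0.349 to 0.774, all over 0.1), but libraries numbered 1 and 2 correlated with each other as well (r 0.341 to 0.486 over 12 pairs, beside 0.349 to 0.431 among those numbered 1 and 0.446 to 0.533 among those numbered 2). The correlations set the libraries numbered 3 apart most clearly. With those far from the group mean, the libraries numbered 1 and 2 deviate alike however they are paired, so their pairing is not shown. The pairing by number was still taken from the correlations, since the labels state none. A block for the libraries numbered 3 alone was added after seeing the data. The members and gene lists were chosen with earlier results of these data known. Named genes are all 10 members, from each other list up to 3 called genes with the largest NH4Cl difference with the block, the 5 genes most like SLC38A2, and copies and overlapping genes. The alternatives were a pseudocount of 0.1, no filter or a minimum of 5 FPKM, equal library sums (TPM), median centering, the compared groups alone, replicates 1 and 2 alone, and each library left out. Genes withheld from the text are not reported here.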

Additional observations from a re-analysis of the deposited data

How the results depend on the processing

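Without the replicate block, 47 genes passed in NH4Cl against control, 127 in NH4Cl plus TGF-β against TGF-β, 117 in NH4Cl plus TGF-β against control and 0 in the other comparisons. With the block the counts were 1674, 2322 and 2274, with 1 in TGF-β against control, 1 in NH4Cl plus TGF-β against NH4Cl and 0 for the interaction, and members past the threshold went from 0 to 2, 3 and 2; it changed no other count of members. Replicates 1 and 2 alone gave 1293, 1740 and 1630 genes and 2, 2 and 1 members. No filter gave 23, 51 and 39 genes, and the compared groups alone 0, 0 and 0, from fewer libraries. Scaling to TPM gave 58 genes in NH4Cl plus TGF-β against TGF-β and 54 in NH4Cl plus TGF-β against control. With 1 library left out the counts ran from 0 to 29, from 3 to 133 and from 2 to 57, and from 0 to 1 for TGF-β against control and for the interaction. With the replicate block and another setting, members in NH4Cl against control were 1 with TPM and 0 to 2 with a library left out; in NH4Cl plus TGF-β against TGF-β 1 with no filter and 1 to 2; and in NH4Cl plus TGF-β against control 1 with no filter, 1 with median centering, 1 in replicates 1 and 2 alone and 0 to 2. Without the block, leaving out 1 library turned the sign of small log2 differences that had not passed: in NH4Cl against control SLC7A11 ran from -0.011 to 0.26, SLC7A5 from -0.17 to 0.065, SLC7A6 from -0.038 to 0.074 and SLC38A9 from -0.071 to 0.0098, and in NH4Cl plus TGF-β against TGF-β SLC7A11 ran from -0.022 to 0.23 and SLC7A5 from -0.23 to 0.0018. SLC7A6 in NH4Cl against control was -0.00073 with median centering. The cause of these changes was not tested. A replicate block for the libraries numbered 3 alone called the same members, 2, 3 and 2. Per gene alternatives with the block, this block, and the compared groups alone per gene, were added after seeing the data. Depth limits SLC38A9 most, at 133 to 245 reads.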
